A study of Mus musculus with 8 samples.

Results

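The miR-99/100 and miR-125 families are 2 small groups of microRNAs that lie together in 3 genomic clusters, each with a let-7 gene. Of their strands on the array, 6 members were followed in brown adipose tissue of mice. These were mmu-miR-99a, mmu-miR-99b, mmu-miR-99b*, mmu-miR-100, mmu-miR-125a-5p and mmu-miR-125b-5p, named without the species prefix hereafter. The passenger strands of the miR-125 hairpins on the array are not among the 6, and no probe of them was kept. The 6 members were taken by their names, with no threshold on a measured value, from the 566 mouse miRNAs of the array. All 6 were among the 189 miRNAs kept for testing. The animals were male C57Bl6N mice aged 8 weeks. The cold group had been held at 8 °C for 24 h before the tissue was taken (3 mice, numbered 1 to 3), and the other group had stayed at room temperature, 21 °C (3 mice, numbered 4 to 6). No allele was altered and no drug was given in either group, as far as the labels say. Total RNA of whole tissue was labelled and hybridised to 1-colour Agilent miRNA arrays, with 2 arrays each for mouse 1 and mouse 4, so 4 arrays stood for each group. In whole tissue, fewer cells of a type and less of an RNA per cell cannot be told apart.

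Brown adipose tissue burns fat to make heat, and cold is its natural stimulus. A miRNA hairpin gives a guide strand, which is loaded into an Argonaute protein and represses messenger RNAs that pair with its seed, and a passenger strand (marked by an asterisk in the array's names), which is mostly degraded. The miR-99/100 family is best known for repressing mTOR and the IGF1 receptor, and the miR-125 family is the mammalian relative of lin-4, which in Caenorhabditis elegans times development together with let-7. In mammals the families are carried by clusters that arose by duplication, so that a cell can make the same seed from several loci.

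The mature sequences are shown because the members differ from each other by so little that seed and locus, not the seed alone, define them. They come from RefSeq (GRCm38.p6), are written 5′ to 3′, and carry the seed, bases 2 to 8, in capitals. All 6 members had an entry under the current name of the same arm. The first set shares the seed ACCCGUA.
miR-99a: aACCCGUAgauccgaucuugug
miR-100: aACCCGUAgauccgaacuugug
miR-99b: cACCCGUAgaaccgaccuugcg

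miR-99a and miR-100 differ at 1 of 22 bases, written U16A with positions counted from the 5′ end and the miR-99a base first. miR-99b differs from miR-99a at 4 bases, A1C, U11A, U16C and U21C, and from miR-100 at 4, A1C, U11A, A16C and U21C. None of these lies in the seed. The second set shares the seed CCCUGAG.
miR-125a-5p: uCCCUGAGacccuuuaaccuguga
miR-125b-5p: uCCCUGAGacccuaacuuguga

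These strands begin with the same 13 bases and are 24 and 22 bases long. miR-351, the other miRNA on the array with this seed, stayed near background throughout, and miR-6367 and miR-6394, which carry it too, had no probe. The passenger strand miR-99b* has a seed of its own, AAGCUCG, which among mature mouse miRNAs it shares with the passenger of miR-99a, for which the array had no probe.
miR-99b*: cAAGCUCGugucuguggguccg

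The cluster on chromosome 17 holds Mir99b (guide at chr17:17830194-17830215, passenger at chr17:17830232-17830253, plus strand), Mirlet7e (chr17:17830366-17830387) and Mir125a (chr17:17830817-17830840), and lies within the bounds of the gene Spaca6. The guide of Mirlet7e begins 134 bases after miR-99b* and miR-125a-5p begins 451 bases after let-7e. On chromosome 16, miR-99a (chr16:77598940-77598961, plus strand) is followed by let-7c after 732 bases and by a copy of miR-125b-5p (chr16:77646279-77646300) after a further 46607 bases, within no RefSeq gene other than miRNA genes. On chromosome 9, miR-100 (chr9:41531437-41531458, plus strand) lies 50503 bases before the other copy of miR-125b-5p (chr9:41581940-41581961), both within the noncoding host gene Mir100hg. Both copies of miR-125b-5p have the same sequence, so a probe for it reads the chromosome 9 and chromosome 16 loci as a sum. Whether a probe also binds another strand of nearly the same sequence was not tested, for the members or for the let-7 miRNAs.

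All arrays lay on 1 slide and all cold samples lay in 1 row of it, so slide row and group cannot be told apart. The arrays differed in overall brightness: the 75th percentile of the probes above background was 793 ± 150 signal units in the cold and 1085 ± 286 units at 21 °C (SD, n = 3 mice each), and it was used to scale each array. Values below are log2 of the scaled signal unless given in units, and a value of 0 stands at that percentile. Different probes bind with different strength, so levels are compared between groups for each miRNA, never between miRNAs, and no order of the members by level is given. Across all 189 miRNAs, 29 passed an adjusted p of 0.05 by limma (15.3%), of which 16 were higher in the cold and 13 lower, and the median change was -0.02 (quartiles -0.26 and 0.27). The numbers of mice and arrays limit the precision, and p-values rest on the spread between mice.

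Of the 6 members 1 passed the test, the passenger strand miR-99b*, which was higher in the cold. It was above background only in the cold group and was tested only for that reason, so this call is no support for a change of the family. The guide strands of the chromosome 16 and chromosome 9 loci, miR-99a, miR-100 and miR-125b-5p, and miR-125a-5p of chromosome 17 had negative changes between -0.43 and -0.18, whereas miR-99b had a positive one of 0.18. None of these 5 passed the threshold by limma after adjustment over all miRNAs, and 1 of them, miR-99a, had an unadjusted p under 0.05 (0.0157), as 62 of all 189 miRNAs did (32.8%). The members' median change was -0.20, against -0.02 over all 189. The groups of mice did not overlap for 3 of the 6 members, which is to be read against 73 of 189 miRNAs (38.6%) whose groups did not overlap. miR-99b* is among the 3, and its lack of overlap is no support either, since it was tested only through the cold group.

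**Figure D1:**
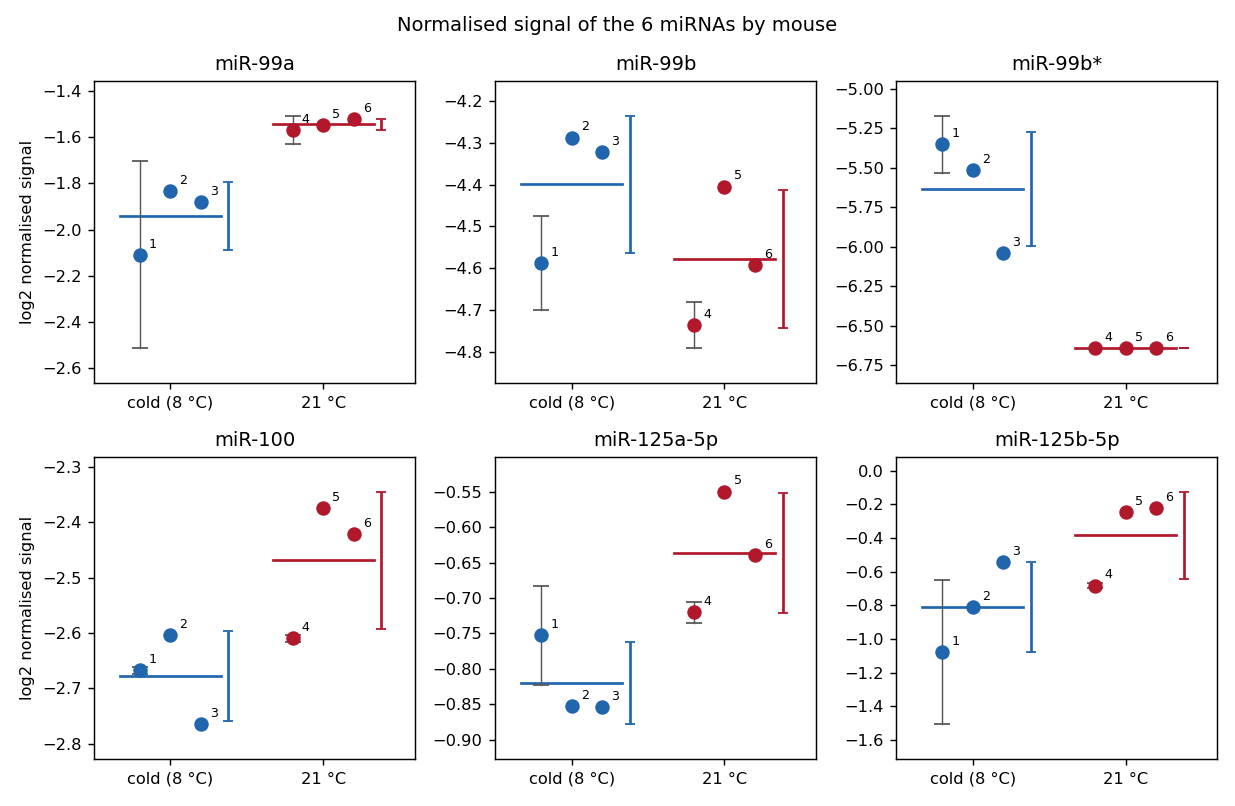
Log2 normalised signal of each member (y axis, a separate scale per panel) in the 3 cold mice (blue) and the 3 mice at 21 °C (red), with the mouse number beside each point, the group mean as a line and its SD as a bar. Thin grey lines join the values of both arrays of mouse 1 and of mouse 4. miR-99a, miR-99b* and miR-125a-5p show no overlap between the groups, and both arrays of mouse 1 lie far apart for miR-99a and miR-125b-5p.

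miR-99a, the guide strand of the chromosome 16 cluster, read -2.11, -1.83 and -1.88 in cold mice 1, 2 and 3. At 21 °C it read -1.57, -1.55 and -1.52 in mice 4, 5 and 6. Every cold mouse was below every mouse at 21 °C, and the latter lay within a narrow band. The mean was -1.94 ± 0.15 in the cold and -1.54 ± 0.02 at 21 °C (SD, n = 3 each). The change was -0.40 ± 0.13 (SE; 95% confidence interval -0.70 to -0.10), which is 1.32-fold lower, with an adjusted p of 0.0741 by limma, so it missed the threshold. On its brighter probe the unscaled signal was 433, 583 and 536 units in the cold and 760, 662 and 1027 units at 21 °C, again without overlap, although unscaled values also hold the brightness of the array.

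The 2 probes of miR-99a had the same sign but different sizes. The brighter probe changed by -0.21 (95% confidence interval -0.53 to 0.11) and the dimmer one by -0.59 (-1.05 to -0.13), with adjusted p-values of 0.310 and 0.0712 by limma over the 329 kept probes, of which 80 (24.3%) passed. The dimmer probe was also where both arrays of mouse 1 parted: it read 26.4 units on one and 90.0 units on the other. The miRNA's value therefore differed by 0.81 between these arrays of 1 animal, more than the difference between the groups, while both arrays of mouse 4 differed by 0.12. Without mouse 1 the change was -0.31. miR-99a passed the threshold by limma when the median of a probe's spots was taken (-0.56, adjusted p = 0.0378) and with scaling to the control probes named dmr (-0.71, adjusted p = 0.0298), over a range of 0.0298 to 0.327 in its 21 alternatives.

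miR-100, the guide strand at the start of the chromosome 9 cluster, read -2.67, -2.60 and -2.76 in the cold and -2.61, -2.37 and -2.42 at 21 °C. Mouse 4 fell among the cold mice, so the groups overlapped. Its change was -0.21 ± 0.13 (SE; 95% confidence interval -0.51 to 0.09), with an adjusted p of 0.299 by limma. The technical arrays differed by 0.01 in both mouse 1 and mouse 4, but opposite moves of its probes cancelled in that value. Between the arrays of mouse 4 the dimmer probe moved by 0.31 and the brighter one by -0.29, and in mouse 1 they moved by 0.13 and -0.10. The brighter probe changed by -0.32 and did not overlap between the groups, with 166, 263 and 254 units in the cold and 328, 354 and 471 units at 21 °C. The dimmer one changed by -0.10 with overlap.

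miR-125b-5p, which both of these loci encode, read -1.08, -0.81 and -0.54 in the cold and -0.68, -0.24 and -0.22 at 21 °C. Mouse 3 stood above mouse 4, so the groups overlapped. Its change of -0.43 ± 0.19 (SE; 95% confidence interval -0.87 to 0.02) was the most negative of the 6 members, with an adjusted p of 0.169 by limma. Its brighter probe read 1518, 1901 and 2085 units in the cold and 2268, 2533 and 3805 units at 21 °C before scaling. After scaling it changed by -0.18 and the groups overlapped (1.27, 1.19 and 1.18 against 1.20, 1.55 and 1.43). The dimmer probe changed by -0.67, and on both arrays of mouse 1 it read 100.8 and 33.6 units. For the miRNA as a whole these arrays differed by -0.86, with the sign opposite to that of miR-99a. Without mouse 1 the change was -0.29, and with dmr scaling it was -0.74 (adjusted p = 0.0400 by limma).

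miR-125a-5p, from the chromosome 17 cluster, had a change of -0.18 ± 0.12 (SE; 95% confidence interval -0.46 to 0.10), with an adjusted p of 0.320 by limma. It read -0.75, -0.85 and -0.85 in the cold and -0.72, -0.55 and -0.64 at 21 °C. The groups did not overlap, but the gap between mouse 1 and mouse 4 was narrower than the difference of -0.14 between both arrays of mouse 1. It rests on 1 of 2 probes, at 371, 462 and 508 units in the cold and 598, 590 and 904 units at 21 °C. The other probe was well above background on 1 of 4 cold arrays and 3 of 4 arrays at 21 °C and was not used, with 75.6 ± 43.1 against 107.8 ± 47.4 units (SD, n = 3 each).

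miR-99b, the guide strand that opens the same cluster, read -4.59, -4.29 and -4.32 in the cold and -4.74, -4.40 and -4.59 at 21 °C. The groups overlapped through mouse 1. The change was 0.18 ± 0.15 (SE; 95% confidence interval -0.17 to 0.52), with an adjusted p of 0.437 by limma, and its probes had like changes of 0.15 and 0.21. Its sign turned when the arrays were not scaled (-0.26) and when they were scaled to the control probes named dmr alone (-0.14). In those settings the median of all miRNAs stood at -0.46 and -0.34. A change taken relative to that median is the same under any scaling of whole arrays, and 16 alternatives could move it. In these 16 and in the main processing miR-99b lay above the median by 0.10 to 0.37, and miR-99a, miR-100, miR-125a-5p and miR-125b-5p lay below it.

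**Figure D2:**
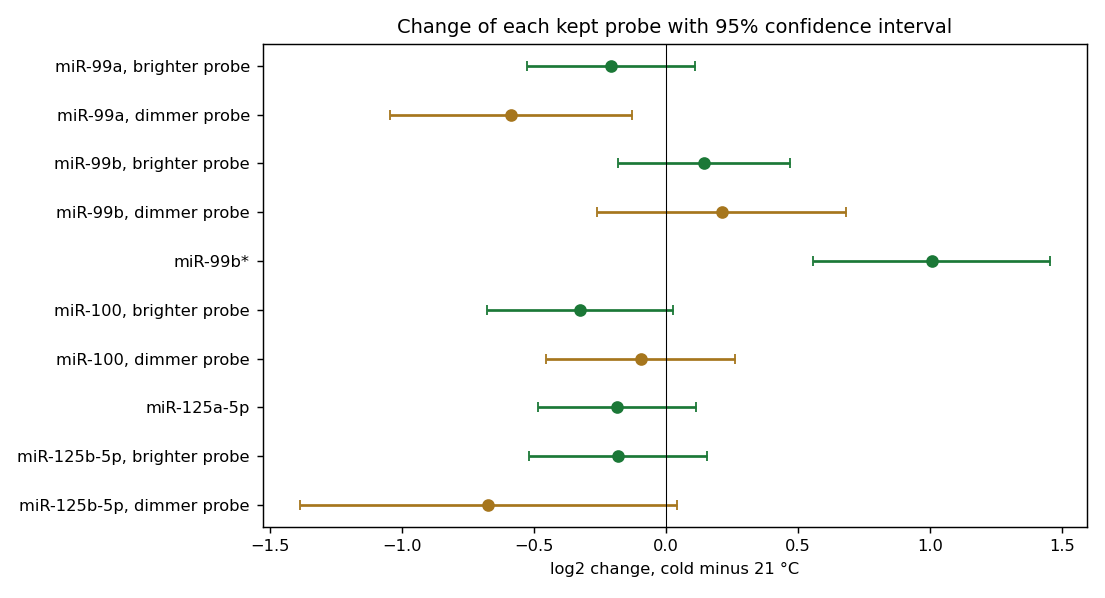
Log2 change in the cold (x axis) with its 95% confidence interval by limma for each of the 10 kept probes of the members (y axis), the brighter probe of a miRNA in green and the dimmer one in brown. The dimmer probes of miR-99a and miR-125b-5p lie at -0.59 and -0.67 and have the widest intervals among the negative changes, whereas the brighter ones lie at -0.21 and -0.18.

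miR-99b*, the passenger strand of miR-99b, was the 1 member past the threshold. Its kept probe read 15.3, 18.2 and 13.9 units in cold mice 1, 2 and 3 and 7.44, 6.35 and 8.57 units in mice 4, 5 and 6, before any scaling. The groups did not overlap, and the probe was well above background on 4 of 4 cold arrays and on 0 of 4 arrays at 21 °C. After scaling the cold mice read -5.35, -5.52 and -6.04, and all mice at 21 °C stood at the floor of 0.01 of the percentile, which is -6.64 on the log2 scale. Since the strand was not well above background at 21 °C, its difference was given as a bound, 1.93-fold higher in the cold. The bound holds for the group means of the kept probe under the main processing only. Other processing gave smaller changes than the bound of 0.95 on the log2 scale, such as 0.58 with normexp and 0.07 with the software's total signal. The measured change was 1.01 ± 0.19 (SE), with an adjusted p of 0.0129 by limma. The strand passed the filter on dim probes only through the cold group, so that it could enter the test only by being higher there.

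That call rests on 1 of the 4 probes printed for miR-99b*, each in 5 spots. On the kept probe, 3, 5, 4 and 3 spots of 5 were well above background on the cold arrays, and 1 or 2 of 5 on the arrays at 21 °C. The other probes were well above background on no array. One read 5.80 ± 0.45 units in the cold and 3.37 ± 0.80 units at 21 °C (SD, n = 3 each), with 5.34 to 6.23 units against 2.45 to 3.90 and no overlap. The remaining ones read 6.93 against 6.97 units and 6.80 against 7.07 units, with overlap. The total signal per miRNA that the scanner software computed gave a change of 0.07 with an adjusted p of 0.782. The call was also lost without mouse 2 (adjusted p = 0.0564 by limma), without mouse 6 (0.0544), without scaling (0.120), with normexp background correction (0.105) and with no filter (0.307).

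The guide and passenger strands come from 1 hairpin, and their difference within an array does not depend on the array's brightness above the floor. miR-99b* minus miR-99b was higher by 0.83 ± 0.25 (SE) in the cold, with an adjusted p of 0.0320 by limma over the 20 hairpins with both strands kept. The passenger stood at the floor in all mice at 21 °C and entered through the cold group alone, so this value is not an exact difference and the p does not support an unequal change of the strands. The per-mouse differences were -0.77, -1.23 and -1.72 in the cold and -1.91, -2.24 and -2.05 at 21 °C, so mouse 3 and mouse 4 were close but did not overlap. An exact 2-sided permutation test of these 6 values gave p = 0.1, the smallest that 3 against 3 mice allow. Of the 20 hairpins 10 passed (50%), so a changed strand difference was common on these arrays. For comparison, miR-199a had the most negative value (-1.46, 3p minus 5p), and that of miR-140 was closest to 0 (-0.0064). The call for miR-99b was lost in 11 of 20 alternatives, among them the software's total signal, where the sign turned (-0.04). At 21 °C the per-mouse differences move with the guide alone.

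The let-7 partners of the clusters were compared as well, since they are cut from neighbouring hairpins. let-7c, which follows miR-99a but is also made from a gene on chromosome 15, read 2.21, 2.08 and 2.16 in the cold and 1.67, 2.07 and 1.53 at 21 °C. The groups did not overlap, but mice 2 and 5 were almost level. Its change of 0.39 ± 0.16 (SE) had an unadjusted p of 0.0458 and an adjusted p of 0.144 by limma. let-7e, between miR-99b and miR-125a-5p, changed by 0.23 ± 0.14 (SE) with an adjusted p of 0.311 and with overlap, and let-7a by 0.15 ± 0.13 (SE) with an adjusted p of 0.472. RefSeq places let-7a genes both in the chromosome 9 cluster (Mirlet7a-2) and on chromosome 13 (Mirlet7a-1), so its probes do not read the cluster alone. None of the 3 passed, and all had the sign of miR-99b rather than that of the other guide strands. The passenger strands were near background: miR-125a-3p was well above it on 0 of 4 cold arrays and 2 of 4 arrays at 21 °C, let-7a* on 0 and 1, and miR-125b*, miR-125b-3p and let-7c-1* on none. miR-99a*, miR-100* and let-7e* had no probe.

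**Figure D3:**
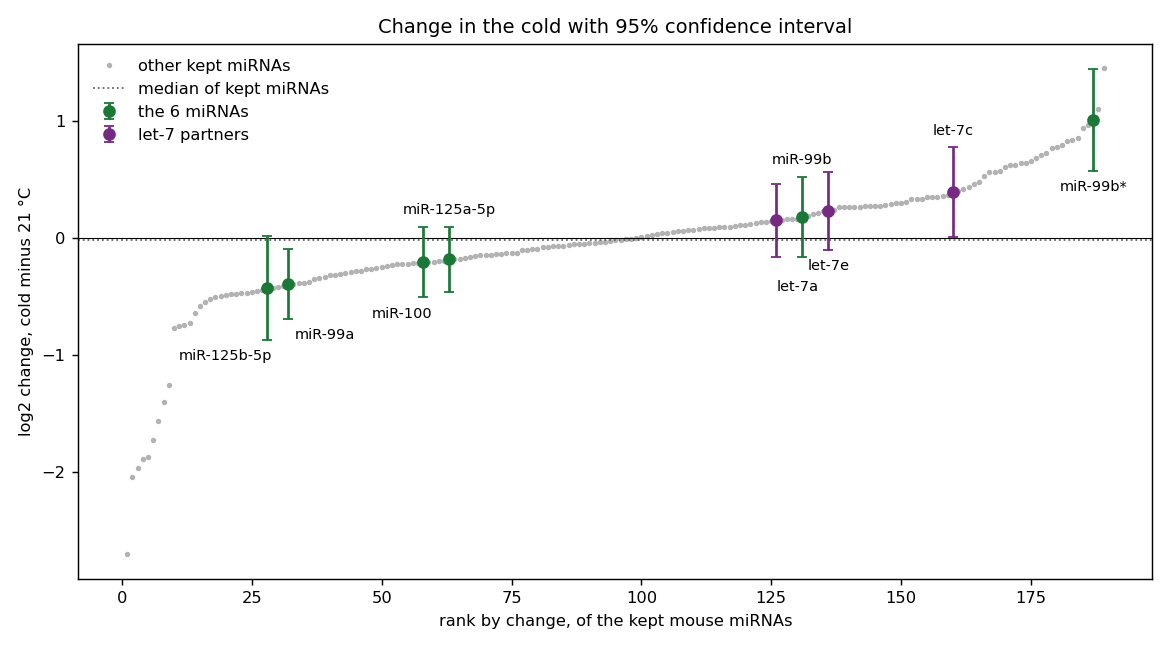
Log2 change in the cold (y axis) of the 189 kept miRNAs ranked from lowest to highest (x axis, grey points), with the 6 members in green and the let-7 partners in purple with their 95% confidence intervals by limma. miR-125b-5p and miR-99a rank 28 and 32 from the low end and miR-99b ranks 131, while the position of miR-99b* is set against the floor at 21 °C.

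Differences between miRNAs within a mouse were then compared between the groups, because a shift of a whole array cancels in them. Each probe was taken as specific to its miRNA, which was not tested. Of 11 pairs, 6 had groups that did not overlap. Over all pairs of kept miRNAs this held for 7557 of 17766 (42.5%), so 6 of 11 was close to the background and is no result about these pairs. The 6 include miR-99b* minus miR-99b, whose passenger strand entered through the cold group alone. Each of the 6 gave p = 0.1 in an exact 2-sided permutation test, the smallest possible with 3 against 3 mice, so no pair could pass 0.05 by this test.

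miR-99a against miR-99b compares the seed ACCCGUA from chromosome 16 with the same seed from chromosome 17, which differ at the 4 bases given above. The log2 difference was 2.48, 2.45 and 2.44 in the cold and 3.17, 2.86 and 3.07 at 21 °C. All cold mice lay below all mice at 21 °C. The close values in the cold rest on the mean of both arrays of mouse 1, which read 2.18 and 2.77 and so lay 0.59 apart, about as far as the groups did. The difference shifted by -0.58 ± 0.09 (SE), or 1.49-fold, with an exact permutation p of 0.1. Scaling of whole arrays cancels in such a difference, so stability was read only from alternatives that altered it: the groups stayed apart in 8 of 8. These alternatives reuse the same mice. The size of the shift varied, from -0.92 with the median of spots to -0.35 with the brightest probe over all 21 alternatives.

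miR-100 against miR-99b, the chromosome 9 copy of the seed, shifted by -0.39 ± 0.11 (SE). It read 1.92, 1.68 and 1.56 in the cold and 2.13, 2.03 and 2.17 at 21 °C, with no overlap, and the groups stayed apart in 7 of the 8 alternatives that altered the difference, all but quantile normalisation. miR-99a against miR-100, which differ by U16A, shifted by -0.19 ± 0.11 (SE) with overlapping groups (0.56, 0.77 and 0.88 against 1.04, 0.83 and 0.90; exact permutation p = 0.2). For the seed CCCUGAG, miR-125a-5p against miR-125b-5p shifted by 0.24 ± 0.22 (SE), with overlap and p = 0.5 in the exact permutation test.

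Within the chromosome 17 cluster, miR-99b against miR-125a-5p shifted by 0.36 ± 0.14 (SE) and miR-125a-5p against let-7e by -0.41 ± 0.09 (SE), both without overlap (exact permutation p = 0.1 each). The latter read -0.48, -0.57 and -0.44 in the cold and -0.09, -0.22 and 0.06 at 21 °C. Among alternatives that altered the difference, the groups of the first pair stayed apart in 4 of 9 and those of the second in 6 of 8. miR-99b against let-7e shifted by -0.05 ± 0.14 (SE), with overlapping groups.

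In the chromosome 16 cluster, miR-99a against let-7c shifted by -0.79 ± 0.21 (SE), or 1.73-fold, the largest size among the 10 pairs of guide strands. It read -4.32, -3.91 and -4.04 in the cold and -3.24, -3.62 and -3.05 at 21 °C, and the groups stayed apart in 7 of the 7 alternatives that altered the difference. Both arrays of mouse 1 lay 0.62 apart. The shift combines a negative change of miR-99a and a positive one of let-7c, whose second gene is not part of the cluster. miR-99a against miR-125b-5p shifted by 0.03 ± 0.17 (SE) and miR-100 against miR-125b-5p by 0.22 ± 0.20 (SE), both with overlap.

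**Figure D4:**
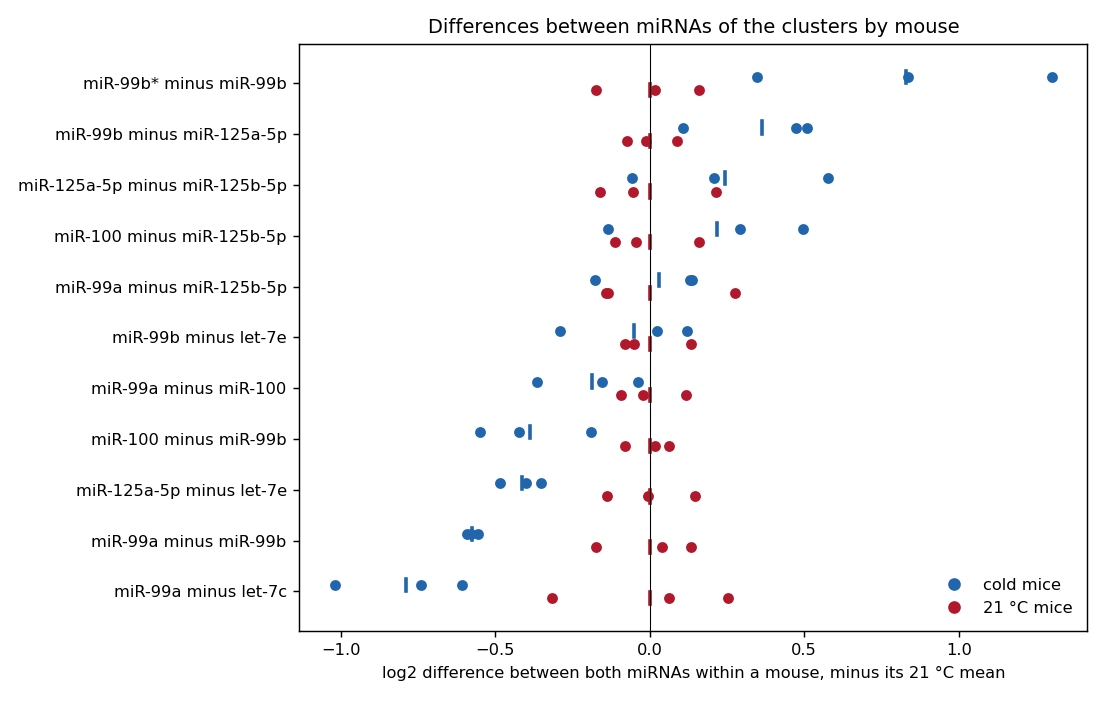
Log2 difference between the miRNAs of each of 11 pairs within a mouse, minus the pair's mean at 21 °C (x axis), for cold mice (blue) and mice at 21 °C (red), with short lines at the group means. Pairs are ordered by their shift, from miR-99a minus let-7c at -0.79 to miR-99b* minus miR-99b at 0.83, and 6 of the 11 show no overlap.

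Patterns over the 6 mice were compared by Pearson's r of the log2 values, as a description over mice that include both groups. The miRNAs most like miR-99a were miR-101a (r = 0.96), miR-374 (0.96) and miR-27a (0.95), none of which passed the test. Those most like miR-99b were miR-20b (0.97), miR-22 (0.96) and miR-27b (0.96). No likeness is given for miR-99b*, since its values at 21 °C were all at the floor. The miRNAs closest to the other members did not include a member either: miR-434-3p, miR-223 and miR-340-5p for miR-100, miR-324-5p, miR-434-3p and miR-340-5p for miR-125a-5p, and miR-148b, miR-10a and miR-19a for miR-125b-5p. Between members, miR-99a had r = 0.74 with miR-100, 0.83 with miR-125b-5p and -0.26 with miR-99b.

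Markers of some cell types moved with the groups and those of others did not. All 4 brown adipocyte markers were kept. Of these, 2 were higher in the cold (miR-193b and miR-378), while miR-365 (-0.07) and miR-455 (0.13) overlapped between the groups. Their summed signal was 10.2 to 12.9 times the array's percentile in the cold and 7.91 to 9.57 times at 21 °C. Of 7 stromal and smooth muscle markers 6 were kept and 3 were lower in the cold, with summed signals of 1.80 to 1.97 against 2.36 to 2.47. Their changes ran from -0.77 to 0.68 (miR-199a-5p, without overlap), and miR-145 was never above background. Of 8 striated muscle markers 6 were kept and 4 were lower, with 2.22 to 10.8 against 12.4 to 18.3, whereas miR-486 had a change of 0.46. The 3 erythroid markers, miR-486 among them, had a median change of 0.64 and 0 passed by limma (2 at an unadjusted p under 0.05), with summed signals of 17.8 to 28.7 against 12.7 to 15.8. The liver marker miR-122 was not above background on any cold array and was kept only through the 21 °C group. Its measured change was -2.71 (adjusted p = 0.115 by limma). The bound on the group means was 4.89-fold lower in the cold. That bound does not hold for each mouse, since mice 4, 5 and 6 read -6.51, -1.74 and -3.56 and mouse 4 lay near the floor. All 8 leukocyte markers were kept and 0 passed by limma (2 at an unadjusted p under 0.05), and their summed signal was 0.831 to 1.27 against 1.37 to 1.46. Of 4 endothelial markers 3 were kept and 0 passed by limma, with changes from -0.29 to 0.14. Their summed signals overlapped between the groups. Of 3 neural markers 1 was kept, miR-128, with a change of -0.49 and overlap between the groups. The 6 epithelial markers were never above background. The part of these shifts in the changes of the members was not tested.

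The changes were recomputed under 21 other settings, since a choice of scale moves all miRNAs together. miR-99a ranged from -0.84 to -0.21, miR-125b-5p from -0.87 to -0.18, miR-100 from -0.65 to -0.07 and miR-125a-5p from -0.62 to -0.03. miR-99b ranged from -0.26 to 0.36 and miR-99b* from 0.07 to 1.53.

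**Figure D5:**
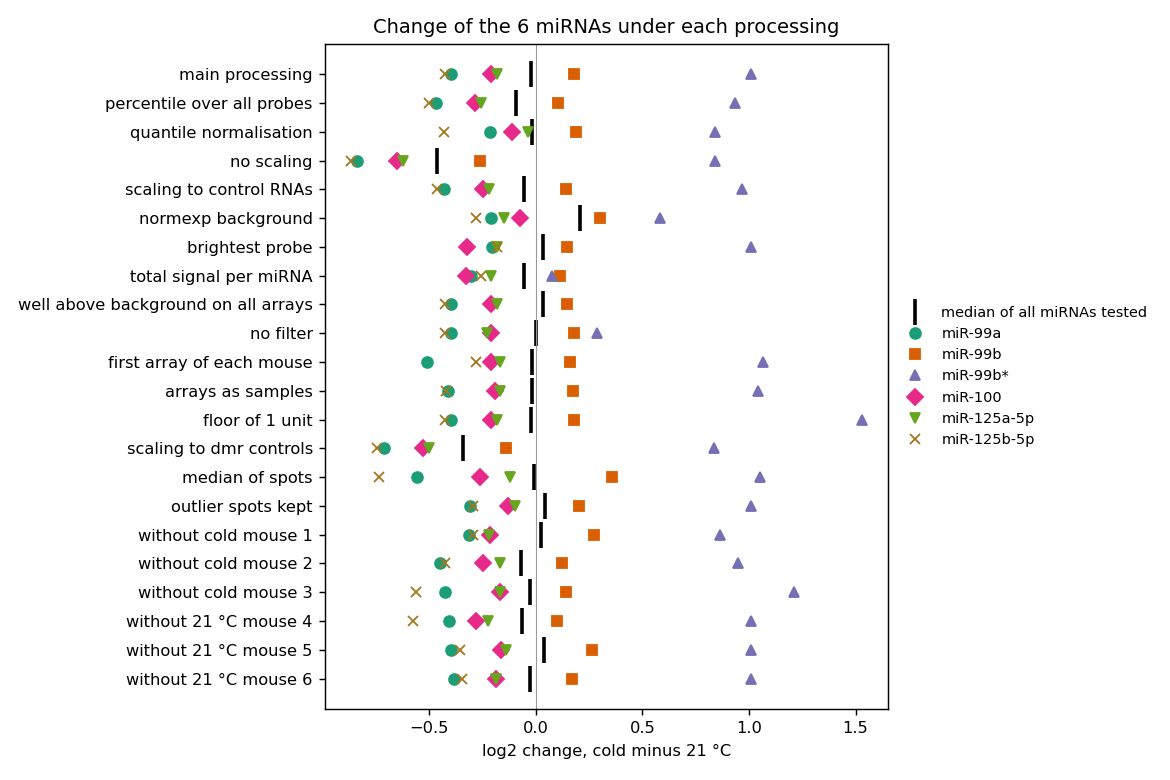
Log2 change in the cold (x axis) of the 6 members under the main processing and 21 alternatives (y axis), with the median of all miRNAs tested as a black bar. miR-99b lies to the right of the bar in every setting and the other 4 guide strands to its left, which scaling of whole arrays cannot alter. miR-99b* also lies to the right wherever it has a value. It was kept only through the cold group and stood at the floor at 21 °C, so its side is no result. miR-99b* has no value when a probe must be above background on all arrays.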

How the data were processed

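The deposited scanner files hold each spot's background-subtracted intensity on a linear scale as the authors' software wrote it, Agilent Feature Extraction 10.7.3.1 per the file headers and 9.5.3.1 per the submitters' processing notes. The authors' deposited value table held the same intensities. Control spots and spots marked as outliers were dropped, and spots of a probe averaged. Signals were scaled, array by array, to the 75th percentile of the 267 probes (of 1712) that exceeded background on all 8 arrays. They were floored at 0.01 and log2-transformed. The 329 probes kept had more than 0.5 of their spots flagged as well above background throughout at least 1 group. Kept probes were averaged per miRNA, then arrays per mouse. Cold and 21 °C mice were compared with limma 3.58.1 (lmFit and eBayes, R 4.3.3). P-values were adjusted by Benjamini-Hochberg over the 189 miRNAs, the 329 probes or the 20 strand pairs. The fit was tested on simulated data without a floor and with changes larger than those of the members, so it does not speak to changes of their size. Single differences were tested by exact permutation in scipy 1.17.1. The SE of a locus difference came from the spread of its 6 values alone, whereas those of miRNAs, probes and the strand difference came from limma. Bounds took, per array, the higher of the probe's own signal and the lowest signal well above background, both scaled and floored. On the arrays of mice 4 and 6 that lowest signal was the floor itself.

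Members, marker lists and pairs were chosen with earlier results of these data known. Named miRNAs are the members, their cluster and seed relatives, the 3 miRNAs most like each member, and the extreme strand pairs. The alternatives varied scaling, background, floor, filter, probes, spots, arrays and mice.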

Additional observations from a re-analysis of the deposited data

How the results depend on the processing

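The members' changes were recomputed under 21 alternatives, of which the median of spots, the keeping of outlier spots and the scaling to the control probes named dmr were chosen after seeing the data. miR-100 and miR-125a-5p kept their sign and stayed short of the threshold in all 21. The median change of all miRNAs moved to -0.46 without scaling, -0.34 with dmr scaling and 0.21 with normexp background correction, which used the median spot signal. The 29 calls (16 higher, 13 lower) became 15 (1 and 14) without scaling, 36 (3 and 33) with dmr scaling, 28 (11 and 17) when the percentile was taken across all probes, 6 (2 and 4) with normexp, 16 with probes above background on all arrays, 5 with no filter, and 8 to 33 when 1 mouse was left out: 33 without mouse 1, 11 without mouse 2, 14 without mouse 3, 13 without mouse 5 and 8 without mouse 6. miR-99a passed with dmr scaling (-0.71, adjusted p 0.0298) and with the median of spots (-0.56, adjusted p 0.0378), against a range of 0.0298 to 0.327 over its alternatives. miR-125b-5p passed with dmr scaling (-0.74, adjusted p 0.0400), against a range to 0.426. miR-99b turned sign without scaling (-0.26) and with dmr scaling (-0.14). miR-99b* lost its call without scaling (0.84), with normexp (0.58), with the software's total signal (0.0745), with no filter (0.28), and without mouse 2 (0.95, adjusted p 0.0564) or mouse 6 (1.01, adjusted p 0.0544); leaving out 1 mouse gave 0.87 to 1.21. The strand difference lost its call with quantile normalisation (0.65), normexp (0.28), no filter (0.11), the first array of each mouse (0.91) and the median of spots (0.69), and turned with the total signal (-0.0388). Leaving out 1 mouse gave 0.59 to 1.07, past the threshold only without mouse 3 (adjusted p 0.0263). Small locus differences turned sign. That of miR-99b and let-7e was 0.0798 with normexp, 0.18 with the median of spots and -0.135 to 0.0713 with 1 mouse left out. That of miR-99a and miR-100 was 0.12 with the brightest probe and 0.0218 with total signal. That of miR-125a-5p and miR-125b-5p was -0.0027 with the brightest probe. That of miR-100 and miR-125b-5p was -0.14 with the brightest probe and -0.0667 with total signal. That of miR-99a and miR-125b-5p was -0.0259, -0.0449, -0.23 and -0.0130 with the brightest probe, total signal, first arrays and outlier spots kept, and -0.0408 to 0.17 with 1 mouse left out. The cause was not tested, apart from fewer samples and other sets of miRNAs by construction. No paired analysis was possible because the groups share no mouse number.

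Signal over background limits miR-99b*, at 6.35 to 18.2 units on its kept probe. Spots of 1 kept member probe on 1 array had a coefficient of variation of 57.2% in the median, and of 115% at most.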
